A study of Homo sapiens with 6 samples.

Results

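Epithelial-mesenchymal transition (EMT) is the programme by which epithelial cells loosen their junctions and take on features of motile, matrix-producing cells. The 10 genes described here are 6 transcription factors that drive it (ZEB1, ZEB2, SNAI1, SNAI2, TWIST1 and TWIST2) and 4 genes used as mesenchymal markers (VIM, FN1, SPARC and THBS1). They were chosen by symbol, and each was found once, by its Ensembl identifier, among the 57820 human genes of the deposited table. RNA was measured in 2 groups of 3 samples each. The WT group is the established line HCT116, which comes from a human colorectal cancer. The DKO1 group is the same line after knockout, per the submitters, of DNMT1 and DNMT3B, which encode DNA methyltransferases. All DKO1 samples are of 1 derived line, so an effect of the 2 knockouts and any other way in which the lines differ cannot be told apart. Both grew in the same serum-containing medium, McCoy's 5A, and no other treatment, time point or allele is given. The labels number the replicates and do not say whether they were separate cultures, and a p-value here reflects only how these samples scatter, possibly for technical reasons.

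ZEB and SNAI proteins are zinc finger repressors that bind E-box letters in promoters of epithelial genes, of which the E-cadherin gene CDH1 is the classic case. TWIST proteins are basic helix-loop-helix factors that bind E-boxes as dimers. In colon tissue vimentin, fibronectin, SPARC and thrombospondin 1 are known mainly from stromal cells, and several EMT genes, VIM and SPARC among them, are known to carry promoter DNA methylation in colorectal tumours. Promoter methylation itself was not analysed here.

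RefSeq promoter windows (250 bases before to 50 after a gene's start, build GRCh38.p14) were matched for 7 of the 10 genes. The stretches of 250 bases before the start are shown for the 2 matched genes called higher in DKO1, ZEB2 and VIM, and for FN1, which was not called, and TWIST2, which was listed at 0 throughout. Capitals mark CpG dinucleotides, the sites where human DNA is methylated.
ZEB2 (chr2:144520120-144520369, minus strand): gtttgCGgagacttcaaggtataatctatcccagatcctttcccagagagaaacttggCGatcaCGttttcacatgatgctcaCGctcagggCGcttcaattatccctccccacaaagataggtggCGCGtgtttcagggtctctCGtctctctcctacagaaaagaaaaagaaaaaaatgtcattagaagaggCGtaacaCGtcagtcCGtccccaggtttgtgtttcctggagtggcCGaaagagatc
VIM (chr10:17227991-17228240, plus strand): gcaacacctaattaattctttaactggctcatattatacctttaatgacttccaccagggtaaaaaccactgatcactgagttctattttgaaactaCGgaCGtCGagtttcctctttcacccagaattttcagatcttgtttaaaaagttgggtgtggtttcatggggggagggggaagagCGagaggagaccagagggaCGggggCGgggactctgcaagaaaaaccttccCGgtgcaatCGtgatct
FN1 (chr2:215436069-215436318, minus strand): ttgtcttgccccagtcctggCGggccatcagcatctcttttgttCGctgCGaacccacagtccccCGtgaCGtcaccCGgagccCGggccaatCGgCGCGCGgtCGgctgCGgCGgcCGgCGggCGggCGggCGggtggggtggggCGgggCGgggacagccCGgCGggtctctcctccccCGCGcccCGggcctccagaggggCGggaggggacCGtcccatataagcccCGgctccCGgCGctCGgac
TWIST2 (chr2:238847835-238848084, plus strand): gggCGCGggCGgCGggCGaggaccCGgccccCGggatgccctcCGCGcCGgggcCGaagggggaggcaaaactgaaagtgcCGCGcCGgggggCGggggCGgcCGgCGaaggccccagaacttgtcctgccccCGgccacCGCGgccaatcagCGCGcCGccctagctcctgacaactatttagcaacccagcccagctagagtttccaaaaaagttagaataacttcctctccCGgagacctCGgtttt
These 4 stretches hold 12, 8, 32 and 26 CpG in the order shown. Over the whole windows of 300 bases, ZEB2 had 14 CpG, VIM 10 and SPARC 11, against a median of 14 over all 35116 windows of this length. TWIST2 and THBS1 had 29 each and FN1 had 38, a number that 9.91% of all windows reach or pass. ZEB1 has 7 windows in the table, with 7 to 35 CpG. The E-box letters CACCTG, or CAGGTG on the other strand, occur in 20.6% of all windows. They were found in 2 of the 7 ZEB1 windows and in none of the windows of ZEB2, TWIST2, VIM, FN1, SPARC and THBS1. ZEB2 and VIM had windows at or below the median CpG number, and the most CpG-dense window, that of FN1, belonged to a gene that was not called. As the 7 ZEB1 windows differ, a window need not stand for the whole promoter region of its gene. SNAI2, also called higher, had no matched window, and neither had SNAI1 and TWIST1. Whether the CpG number of a window bears on the calls was not tested.

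Values are TPM, a unit of transcript abundance, which allow for gene length and add up to the same sum in every sample. The depth of a sample is unknown, and a listed 0 may be a value below the rounding of the table. A gene was tested where 3 or more of the 6 samples reached 1 TPM, and called at an adjusted p below 0.05 in limma over the 13604 genes tested. Log2 fold changes are of TPM + 1, DKO1 minus WT, which understates the change of low genes. DNMT1 was at 231.01 to 249.97 TPM in WT and 30.81 to 46.82 TPM in DKO1, and DNMT3B at 6.77 to 8.22 and 3.56 to 4.86 TPM. Both were called lower (adjusted p = 3.59e-05 and 0.03), the DNMT3B call being lost when any WT replicate (0.11, 0.0908 and 0.0778 for 1, 2 and 3) or DKO1 replicate 1 (0.0535) was left out, and in the rescaling below (0.065). Mitochondrially encoded genes held 19.7% to 20.1% of TPM in WT, 26.9% and 27.7% in DKO1 replicates 1 and 2, and 21.2% in DKO1 replicate 3. The part of this difference in the results was not tested, and values from a table rescaled without these genes and the spike-in rows are given where they change a call.

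Of the 10 genes, 8 passed the filter on low values. VIM, SNAI2 and ZEB2 were called higher in DKO1 and none was called lower, where 18.8% of all tested genes were called higher and 9.60% lower. ZEB1, SNAI1, FN1, SPARC and THBS1 did not pass the test. TWIST1 and TWIST2 did not pass the filter. ZEB2 passed it only through the DKO1 samples, in which it is high, so the count among the 8 is a description. The 3 DKO1 samples lay above all WT samples for 5 of the 8 (VIM, SNAI2, ZEB2, SPARC and THBS1), against 27.5% of all tested genes. In bulk RNA, more cells expressing a gene and more RNA per cell cannot be told apart.

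**Figure D1:**
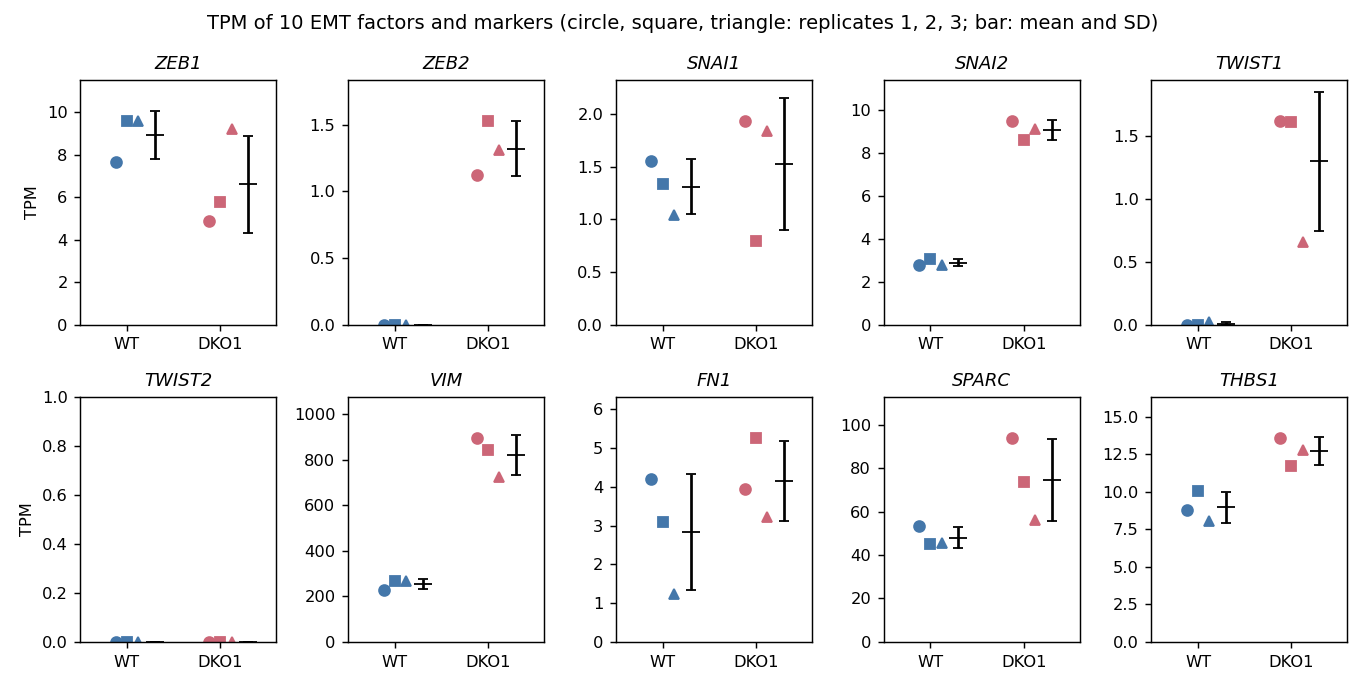
TPM of each of the 10 genes (vertical axis, from 0, a scale for each panel) in the 3 WT and 3 DKO1 samples; symbols are replicates 1, 2 and 3, and the bar is the mean with its SD (n = 3). VIM, SNAI2, ZEB2, TWIST1, SPARC and THBS1 have every DKO1 sample above every WT sample, ZEB1, SNAI1 and FN1 overlap, and TWIST2 is listed at 0 in all 6.

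Of the ZEB pair, ZEB2 rose and ZEB1 did not pass the test. ZEB2 (ENSG00000169554.12, chromosome 2) was listed at 0 in all 3 WT samples and at 1.12, 1.53 and 1.31 TPM in DKO1 replicates 1, 2 and 3. The groups did not overlap, and the difference on the log2(TPM + 1) scale was 1.21 (SE 0.13, adjusted p = 0.00036), which is no fold against a group listed at 0. This low level sat close to the filter, and under quantile normalization, which forces the same distribution on every sample, that difference was 0.48 with the call lost (adjusted p = 0.132). ZEB1 (ENSG00000148516.17, chromosome 10), the more abundant of the pair, was at 7.64, 9.59 and 9.60 TPM in WT and at 4.88, 5.75 and 9.18 TPM in DKO1. DKO1 replicates 1 and 2 lay below every WT sample and replicate 3 lay within the WT range. ZEB1 was not called (log2 fold change −0.42, 95% interval −0.96 to 0.12, adjusted p = 0.216). Without DKO1 replicate 3, which also had the lowest mitochondrial share of its group, ZEB1 was called lower (log2 fold change −0.65, adjusted p = 0.0304). Whether the fold changes of ZEB1 and ZEB2 differ was not tested.

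Of the SNAI pair, SNAI2 rose and SNAI1 did not pass the test. SNAI2 (ENSG00000019549.4), which encodes Slug, was at 2.77, 3.06 and 2.80 TPM in WT and at 9.50, 8.60 and 9.10 TPM in DKO1. The spread within each group was small beside the gap, with means of 2.88 ± 0.16 and 9.07 ± 0.45 TPM (SD, n = 3), 3.15-fold higher in DKO1 (log2 fold change 1.38, SE 0.14, adjusted p = 0.000337). This call held in all 14 alternatives, with log2 fold changes from 1.09 to 1.62. SNAI1 (ENSG00000124216.3, chromosome 20), which encodes Snail, was at 1.56, 1.34 and 1.04 TPM in WT and at 1.94, 0.80 and 1.84 TPM in DKO1. The DKO1 samples lay on both sides of the WT range. The log2 fold change was 0.099 (95% interval −0.42 to 0.61, adjusted p = 0.774), and its sign turned under quantile normalization (−0.42) and without DKO1 replicate 1 (−0.027) or 3 (−0.0018). Whether the fold changes of SNAI1 and SNAI2 differ was not tested.

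TWIST1 (ENSG00000122691.8, chromosome 7) was listed at 0, 0 and 0.02 TPM in WT and at 1.62, 1.61 and 0.66 TPM in DKO1. All DKO1 samples lay above WT, with replicate 3 at less than the other two. With 2 samples at 1 TPM or more, TWIST1 was left out of the test, and in the fit with no filter it was called higher (a difference of 1.16 on the log2(TPM + 1) scale, adjusted p = 0.00973). TWIST2 (ENSG00000233608.2, chromosome 2) was listed at 0 in all 6 samples.

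The leading factor by level was not the same one in every sample. The 6 factors summed to 12.0, 14.0 and 13.5 TPM in the WT samples and to 19.1, 18.3 and 22.1 TPM in DKO1. ZEB1 made up 63.8%, 68.5% and 71.3% of that sum in WT and 25.6%, 31.4% and 41.6% in DKO1. The share of SNAI2 went from 23.1%, 21.9% and 20.8% to 49.8%, 47.0% and 41.2%. ZEB1 was therefore the most abundant of the 6 in each WT sample, SNAI2 was so in DKO1 replicates 1 and 2, and the 2 were nearly level in DKO1 replicate 3, with 9.18 and 9.10 TPM. ZEB2 and TWIST1 added 5.9% to 8.4% and 3.0% to 8.8% of the sum in DKO1. A sum over chosen genes is given as a description, with no test.

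**Figure D2:**
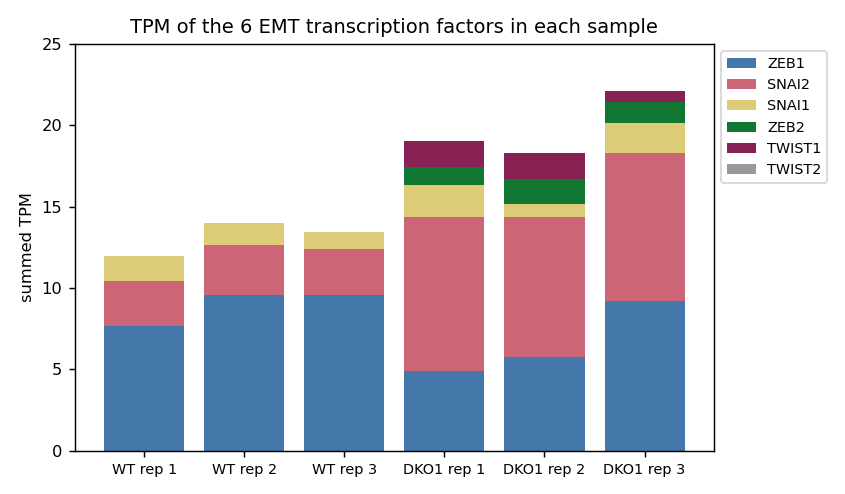
Stacked bars of the TPM of the 6 transcription factors (vertical axis, summed TPM, from 0) in each of the 6 samples. The SNAI2 segment is taller in every DKO1 sample, ZEB2 and TWIST1 appear in DKO1, and the sum runs from 12.0 to 14.0 TPM in WT and from 18.3 to 22.1 TPM in DKO1.

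VIM was the most abundant of the 10 genes and the 1 marker that was called. VIM (ENSG00000026025.9, chromosome 10), the type III intermediate filament of mesenchymal cells, was at 228.53, 267.90 and 268.64 TPM in WT and at 897.67, 842.91 and 725.05 TPM in DKO1. It was thus already well expressed in WT, where it ranked 614th, 527th and 505th of all human genes, and ranked 117th, 111th and 161st in DKO1. The means were 255 ± 23 and 822 ± 88 TPM, 3.22-fold higher in DKO1 (log2 fold change 1.68, SE 0.13, adjusted p = 7.8e-05). The call held in all 14 alternatives, with log2 fold changes from 1.61 to 1.83.

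The matricellular genes SPARC and THBS1 did not pass the test, though their groups did not overlap. SPARC (ENSG00000113140.6, chromosome 5), a collagen-binding glycoprotein, was at 53.44, 45.01 and 45.40 TPM in WT and at 94.02, 73.87 and 56.36 TPM in DKO1. DKO1 replicate 3 came within 3 TPM of WT replicate 1. The log2 fold change was 0.60 (SE 0.19, adjusted p = 0.0522), just short of the threshold. SPARC was called with the replicate number as a block (adjusted p = 0.0134), without DKO1 replicate 3 (log2 fold change 0.79, 0.00894), with the rescaling (0.0359) and under quantile normalization (0.0486). The other 10 alternatives did not call it, among them median-ratio scaling (adjusted p = 0.103) and leaving out WT replicate 3 (0.161). THBS1 (ENSG00000137801.9, chromosome 15), a secreted glycoprotein that releases TGF-beta from its latent form, was at 8.82, 10.08 and 8.04 TPM in WT and at 13.60, 11.75 and 12.77 TPM in DKO1. Every DKO1 sample lay above WT, with a log2 fold change of 0.46 (SE 0.15, adjusted p = 0.0532). THBS1 was called with the rescaling (0.0256) and without the variance trend (0.0425). The other 12 alternatives did not call it, with a log2 fold change of 0.30 under quantile normalization (adjusted p = 0.223).

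FN1 (ENSG00000115414.14, chromosome 2), the matrix protein fibronectin and a standard marker of EMT, was not called. It was at 4.20, 3.10 and 1.24 TPM in WT and at 3.94, 5.27 and 3.23 TPM in DKO1. The groups overlapped, and WT replicate 3 was the lowest of all 6 samples. The log2 fold change of 0.49 had a 95% interval of −0.27 to 1.24 (adjusted p = 0.303), which holds both no change and a change as large as the 1.21 of ZEB2. The value was 0.14 without WT replicate 3 and 0.74 without WT replicate 1, and 0.13 under quantile normalization.

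**Figure D3:**
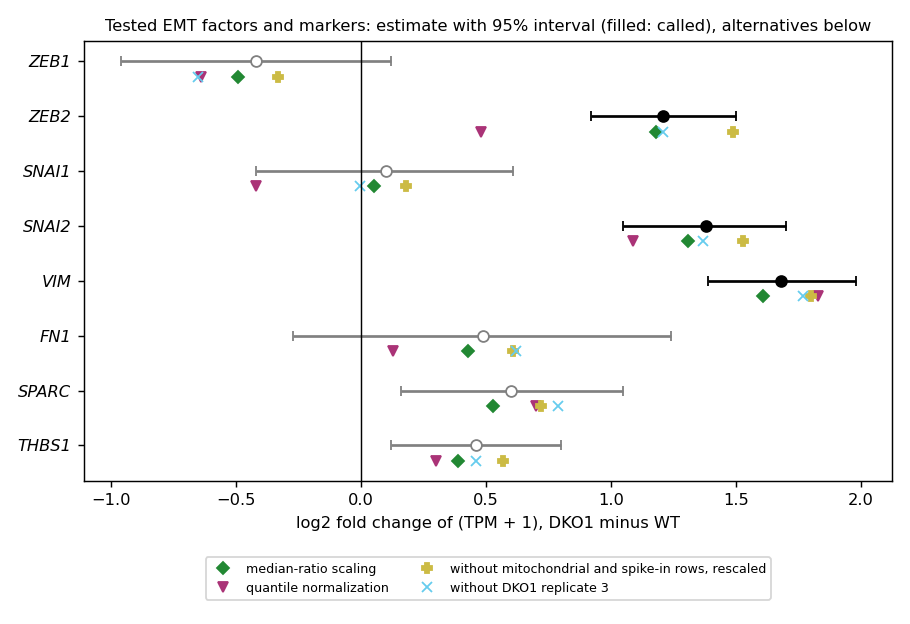
Log2 fold change of TPM + 1, DKO1 minus WT (horizontal axis), for the 8 genes tested, with unadjusted 95% intervals; filled points were called, and small symbols give 4 alternatives. VIM, SNAI2 and ZEB2 lie between 1.21 and 1.68, while the symbol for quantile normalization puts ZEB2 at 0.48 and turns SNAI1 to −0.42.

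In order of level, VIM led in both groups and SPARC came next, with no overlap between them or with the genes below. In WT, THBS1 and ZEB1 followed and overlapped each other, then SNAI2 and FN1, which overlapped, and SNAI1, which overlapped FN1. In DKO1, THBS1 lay above SNAI2 without overlap, SNAI2 overlapped ZEB1, ZEB1 overlapped FN1, and SNAI1, ZEB2 and TWIST1 overlapped at the low end. DKO1 replicate 3 had the lowest VIM, SPARC, TWIST1 and FN1 and the highest ZEB1 of its group.

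The genes whose values over the 6 samples lay closest to those of a called gene were found by Euclidean distance on log2(TPM + 1). Nearest to SNAI2 were CFAP91 (distance 0.21), ZNF416 (0.23) and CDH1 (0.37). CDH1 is thus close to SNAI2 in level as well as in change. Nearest to ZEB2 were ZNF818P (0.08), SLC18A2 (0.12) and LRRIQ1 (0.14), each at 0.01 TPM or less in every WT sample. By this distance, which counts level as well as change, no gene lay near VIM, the closest being TMBIM6 (1.38), ARF4 (1.41) and UBL5 (1.46).

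The antisense partner of VIM rose with it. VIM-AS1 (ENSG00000229124.2) was at 4.47, 4.61 and 3.59 TPM in WT and at 8.39, 13.23 and 10.35 TPM in DKO1 (log2 fold change 1.14, adjusted p = 0.00453). The groups did not overlap. The library kit keeps strand, but the sources used here do not say whether the authors' counting used it, and reads of VIM and VIM-AS1 in their overlap cannot be told apart with certainty. At its mean of 10.7 TPM in DKO1 against 822 TPM for VIM, VIM-AS1 is a small part of the pair. ZEB1-AS1 was at 2.48, 3.09 and 2.63 TPM in WT and at 3.16, 4.65 and 4.26 TPM in DKO1 and was not called (adjusted p = 0.114). ZEB2-AS1 and FN1-DT were listed at 0 in all samples, and SNAI3-AS1 stayed below 1 TPM. MIR200CHG, host of microRNAs of the miR-200 family that are known to repress ZEB1 and ZEB2, was at 2.00 to 4.26 TPM in WT and 1.40 to 3.77 TPM in DKO1 (log2 fold change −0.089, SE 0.31, adjusted p = 0.86).

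Neighbouring genes, by their order in GENCODE release 29, showed no single pattern. Of the 20 nearest tested genes on either side of the 10, 5 were called higher and 2 lower, where 18.8% and 9.60% of all tested genes were. All 5 called higher were below 1 TPM in every WT sample. They passed the filter, and so became nearest tested genes, only through DKO1, in which they are high. The count is therefore a description. On the side of ZEB2 away from GTDC1, the noncoding gene TEX41 was listed at 0 in WT and at 1.74, 1.72 and 1.53 TPM in DKO1 (adjusted p = 0.000128), whereas GTDC1 itself was not called (log2 fold change −0.094, adjusted p = 0.701). HDAC9, a histone deacetylase gene beside TWIST1, was at 0.62, 0.61 and 0.42 TPM in WT and at 2.45, 3.26 and 2.86 TPM in DKO1 (adjusted p = 0.000534), and POLR1F, on the other side of TWIST1, went from 50.1 ± 1.8 to 28.4 ± 7.2 TPM (log2 fold change −0.82, adjusted p = 0.0143). ST8SIA6-AS1, beside VIM, was listed at 0 in WT and at 22.68, 18.48 and 30.54 TPM in DKO1 (adjusted p = 9.49e-06). UBE2V2, beside SNAI2, moved the other way, from 345.30, 406.17 and 372.10 TPM to 135.75, 179.73 and 229.12 TPM (log2 fold change −1.07, adjusted p = 0.00526). The neighbours called beside ZEB2 and VIM thus rose, the one beside SNAI2 fell, and those beside TWIST1 went opposite ways. The remaining calls were HDAC4 beside TWIST2 (log2 fold change 0.91) and RASGRP1 beside THBS1 (0.71), both higher. These neighbours were singled out after their values were seen.

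Most of the epithelial junction and surface genes, some of which SNAI and ZEB factors are known to repress, were not called. CDH1, which encodes E-cadherin, was at 3.54, 2.75 and 2.63 TPM in WT and at 9.56, 9.78 and 10.11 TPM in DKO1, 3.3-fold higher (log2 fold change 1.45, SE 0.15, adjusted p = 0.000418). VIM and CDH1 were thus both higher, and the ratio of VIM to CDH1 overlapped between the groups, at 64.56, 97.42 and 102.14 in WT and 93.90, 86.19 and 71.72 in DKO1. The ratio of VIM to SPARC, the next most abundant marker, was at 4.28, 5.95 and 5.92 in WT and at 9.55, 11.41 and 12.86 in DKO1, with no overlap. Of 36 listed junction and surface genes 31 were tested, 6 rose and none fell (median log2 fold change 0.24, against 0.07 over all tested genes). The share that rose was close to the 18.8% of all tested genes. After CDH1 the leading ones were the polarity gene LLGL2, at log2 1.05, and the tight junction gene CGN, at 0.98. The LLGL2 call was lost without WT replicate 3 (adjusted p = 0.0595) and without DKO1 replicate 1 (0.0525). Without DKO1 replicate 2, 12 genes of this list rose. With the replicate block 2 fell, and 1 fell under median-ratio scaling, with no filter and without DKO1 replicate 3.

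Of 15 epithelial transcription and splicing regulators, several of which are known to oppose ZEB1, 9 were tested, 6 rose and 1 fell (median 0.61). Over all tested genes 18.8% rose and 9.60% fell (median 0.07). The 6 that rose were led by ELF3, an epithelial ETS factor, from 0.653 ± 0.13 to 6.15 ± 2.8 TPM (adjusted p = 0.00239). OVOL2, a repressor of EMT factors (log2 fold change 0.93), and GRHL1 (0.65) came next, and the 1 that fell was the intestinal factor CDX2 (−0.49). ELF3 passed the filter only through DKO1 and CDX2 only through WT. The CDX2 call was lost without WT replicate 1, 2 or 3 (adjusted p = 0.0953, 0.0789 and 0.102). The OVOL2 and GRHL1 calls were lost under quantile normalization (adjusted p = 0.149 and 0.148), without WT replicate 2 (0.057 and 0.0637) and without WT replicate 3 (0.0629 and 0.0832). In this list 1 gene rose without WT replicate 2 or without WT replicate 3, 3 rose and 2 fell under quantile normalization, and 4 rose and 2 fell under median-ratio scaling. With the replicate block, and without DKO1 replicate 3, 2 fell.

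Among 15 other factors known to drive EMT, 9 were tested, 2 rose and 1 fell (median 0.41). These counts are near the shares over all tested genes, 18.8% higher and 9.60% lower (median 0.07). ETS1 was at 0.03, 0.01 and 0.05 TPM in WT and at 11.08, 13.14 and 11.17 TPM in DKO1 (log2 fold change 3.63, adjusted p = 7.54e-06), so that every DKO1 sample held more ETS1 than SNAI2. KLF8 was called higher (1.13) and SOX4 lower (−1.02), where ETS1 and KLF8 passed the filter only through DKO1. Quantile normalization gave this list a median of 0.14, and the fit with no filter one of 0.28. Without DKO1 replicate 3, 4 of these factors rose and 2 fell, with the replicate block 3 rose and 2 fell, and under median-ratio scaling 2 rose and 2 fell. SNAI3, the remaining SNAI gene, did not exceed 0.02 TPM.

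Other mesenchymal and matrix genes were largely near 0 in both groups. Of 35 listed, 18 were below 1 TPM in all 6 samples and 14 were tested, of which 8 rose and 1 fell (median 1.04; 7 and 2 under quantile normalization). Over all tested genes 18.8% rose and 9.60% fell (median 0.07). CDH2, TGFBI and FBN1 passed the filter only through DKO1, and with no filter the median over all 35 was 0.31, with 17 higher and 2 lower. Over all genes the fit with no filter called 4400 higher and 1098 lower (median 0.058). CDH2, which encodes N-cadherin, was listed at 0 in WT and at 12.56, 11.21 and 8.48 TPM in DKO1 (adjusted p = 1.46e-05). It was followed by TGFBI, a secreted matrix protein (log2 fold change 3.45), and COL6A3, a chain of collagen VI (2.27), and the gene that fell was the matricellular CCN1 (−1.01). In DKO1 no gene of this list reached the VIM range, the most abundant being S100A4, at 103.96 to 313.39 TPM, and CD44, at 160.51 to 164.43 TPM.

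**Figure D4:**
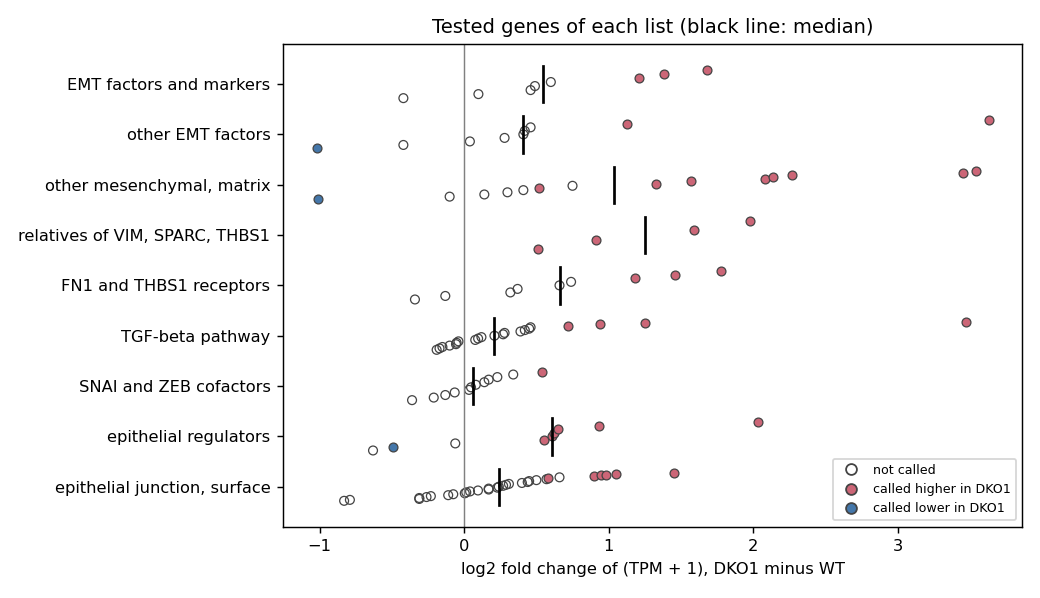
Log2 fold change of TPM + 1, DKO1 minus WT (horizontal axis), for the tested genes of each list; each circle is a gene, red was called higher, blue lower, open not called, and the black line is the list's median. The 3 called EMT factors and markers lie between 1.21 and 1.68, the epithelial junction genes centre on 0.24, and CDH2, TGFBI, ETS1 and TGFB2 lie beyond 3.

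Of 16 relatives of VIM, SPARC and THBS1 (other intermediate filaments, the SPARC family and other thrombospondins), 4 were tested and all 4 rose (median 1.25; 3 of 4 after quantile normalization or median-ratio scaling). Over all tested genes 18.8% rose and 9.60% fell (median 0.07). SPOCK1 passed the filter only through DKO1, and with no filter 7 of the 16 rose, with a median of 0.49. Over all genes that fit called 4400 higher and 1098 lower (median 0.058). The 4 that rose in the main fit were led by SPOCK1 of the SPARC family (log2 fold change 1.98), the intermediate filament gene NES (1.59) and FSTL1 (0.91). No other thrombospondin passed the filter beside THBS1. Of 13 receptors of FN1 and THBS1 9 were tested, 3 rose and none fell (median 0.66), namely the integrin subunit ITGA4 (1.78), the co-receptor SDC4 (1.46) and ITGB3 (1.18, a call lost under quantile normalization with adjusted p = 0.156). Of all tested genes 18.8% rose. ITGA4 and ITGB3 passed the filter only through DKO1. The median was 0.32 with no filter, 1.05 without DKO1 replicate 2 and 0.40 without DKO1 replicate 3. With the replicate block, and without DKO1 replicate 2, 5 of these receptors rose, and 1 fell with no filter and without DKO1 replicate 3.

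TGF-beta signalling is a classic inducer of ZEB, SNAI and TWIST genes. The ligand gene TGFB2 was at 0.14, 0.25 and 0.23 TPM in WT and at 9.77, 11.86 and 16.33 TPM in DKO1 (log2 fold change 3.47, adjusted p = 2.64e-05). Of 25 listed pathway genes 21 were tested, 4 rose and none fell (median 0.21), a share close to that over all tested genes, with the activin subunit INHBB (1.25) after TGFB2. Both passed the filter only through DKO1. Under quantile normalization the INHBB call was lost (adjusted p = 0.142), with 2 genes of the list higher and 1 lower, and with the rescaling 8 rose. Of 13 corepressors and turnover factors of SNAI and ZEB proteins 12 were tested and 1 rose, RCOR1 (log2 fold change 0.54, adjusted p = 0.0315), a call lost in 7 of the 14 alternatives with adjusted p from 0.0551 to 0.113. The share of all tested genes called higher was 18.8%. Without DKO1 replicate 3, 2 of these cofactors rose and 1 fell.

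Markers of cell types that carry VIM, SPARC and FN1 in tissue were checked in the same samples. The 8 fibroblast markers summed to 1.18 to 1.86 TPM in WT and to 3.53 to 3.93 TPM in DKO1, with 7 of them below 1 TPM in all samples, against 725.05 to 897.67 TPM of VIM in DKO1. COL1A1 reached 0.84 TPM and COL1A2 1.66 TPM at most. COL1A1, COL1A2, DCN, PDGFRA and THY1 lay above WT in every DKO1 sample. COL3A1 lay below WT, at 0.07 to 0.17 TPM in DKO1 against 0.26 to 0.33 TPM in WT, and LUM and PDGFRB overlapped. None of the 8 passed the filter. The 4 endothelial markers found summed to 0.86 TPM at most, and the 5 blood markers to 0.21 to 0.43 TPM in WT and 3.60 to 4.12 TPM in DKO1, of which LYZ held 2.23 to 2.46 TPM. The 9 colon epithelium markers summed to 942 to 1178 TPM in WT and to 700 to 930 TPM in DKO1, and 7 were tested, of which CDH1 rose and CDX2 fell. EPCAM, at 371.29 to 536.37 TPM over all samples, was not called. KRT8 was at 488.37, 332.91 and 325.78 TPM in WT and at 255.95, 142.33 and 258.21 TPM in DKO1, below WT without overlap but not called (adjusted p = 0.0543). KRT18, KRT19 and KRT20 were not called, VIL1 stayed below 1 TPM and LGR5 did not exceed 0.06 TPM. The part of these differences in the results was not tested.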

How the data were processed

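The 10 genes, the lists and the tests were chosen with earlier results of these data known. The authors deposited 1 TPM value per gene and sample, given to 2 decimals. Per the submitters' processing notes, which name tools and builds with no role or order, the tools were RSEM 1.2.21, STAR 2.5.3a, edgeR 3.12.1, FastQC and Trim Galore 0.4.0, and the builds GRCh37 and hg19. Libraries were made with a stranded messenger RNA kit, per the labels' protocols, and the sources used here give neither the annotation nor the strand setting of the counting. The 77 spike-in rows stayed out of tests, and symbols were matched by Ensembl identifier for 51996 of 57820 human rows.

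Log2(TPM + 1) values were fitted by genotype alone in limma 3.58.1 (R 4.3.3, empirical Bayes with a trend), for genes that reached 1 TPM in 3 or more of 6 samples, with Benjamini-Hochberg adjustment over all 13604 genes tested, and the fit was checked on simulated data. Ratios of TPM are of group means. Genes named from a list are its 3 called genes with the largest change, besides those singled out in the text, and the 3 nearest genes of each called gene. A gene that this rule names is not reported here. Alternatives were leaving out each sample, the replicate number as a block, quantile normalization, median-ratio scaling, rescaling without mitochondrial and spike-in rows, a pseudocount of 0.1, no variance trend, no filter, and genes averaging 5 TPM or more. Same-numbered samples deviated together from their group means over genes (r = 0.35, 0.572 and 0.267 for numbers 1, 2 and 3). The fit behind the calls did not pair the samples, and the replicate block was used only as an alternative. The labels do not say what a number marks.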

Additional observations from a re-analysis of the deposited data

How the results depend on the processing

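Over 14 alternatives, the calls of VIM and SNAI2 held in each, and that of ZEB2 held in each fit that tested it except under quantile normalization. Of the 8 tested genes, 3 rose, and 5 did so after rescaling without mitochondrial and spike-in rows, which moved the median of every tested gene from 0.07 to 0.19 (log2). That median was −0.066 under quantile normalization and −0.016 in genes that averaged 5 TPM or more. Leaving out 1 sample at a time gave 3 to 4 of these genes higher and 0 to 1 lower, ZEB1 being the lower one without DKO1 replicate 3. SNAI1 was at −0.42 under quantile normalization and ran from −0.027 to 0.33 with 1 sample left out, against 0.099. Over all genes 2558 rose and 1306 fell (66.2% of calls higher). Without a filter 4400 rose, and 1145 rose among genes averaging 5 TPM or more. Median-ratio scaling called 2285 higher and 1738 lower (56.8%), and quantile normalization 1817 and 1939 (48.4%). Leaving out 1 sample gave 1705 (without WT replicate 3) to 2842 higher and 524 (without WT replicate 2) to 2079 lower (without DKO1 replicate 3). Over all the lists 35 genes rose and 3 fell, where 18.8% of all tested genes rose and 9.60% fell. The lists join epithelial and mesenchymal genes, and some of their tested genes passed the filter only through DKO1, so this count is a description. Of the listed genes averaging 5 TPM or more 21 rose. With no filter, median-ratio scaling and quantile normalization 6 fell, and 7 fell with the replicate block. Leaving out 1 sample gave 25 to 42 higher and 2 to 8 lower. The median of the cofactor list was −0.0043 under median-ratio scaling. The replicate block changed the call of SPARC and of no other of the 10 genes. The causes of these changes were not tested. Depth is unknown for these values, so a listed 0 has no detection limit.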
